A study of Mus musculus with 4 samples.

Results

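The 9 genes described here make, move, read and remove retinoic acid, and their rows were found by symbol, once each, among the 32285 genes of single-cell libraries from mouse hearts at E10.5. They were *Aldh1a2*, *Cyp26a1*, *Cyp26b1*, *Stra6*, *Crabp1*, *Crabp2*, *Rara*, *Rarb* and *Rarg*. The list was put together because *Cyp26a1* was higher in mutant endocardium in earlier results of these data, so the genotype values of all 9 genes in endocardial cells (EdCs) are given as a description with no test. The same holds for vascular endothelial cells, which fall into the endocardial clusters when cells are grouped more coarsely.

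The study asked what the endothelial receptor TIE2, encoded by *Tek*, does in the endocardium while the ventricle forms trabeculae. Controls were Tie2flfl embryos, with *Tie2* alleles that Cre can delete and no Cre, and 1 library each was labelled 5 and 7. The mutants, *Tie2-cko*, were Nfatcre-Tie2flfl, carried the same floxed alleles plus a knock-in Nfatc1 Cre active in the endocardium, and gave libraries 6 and 8. By the study's methods the mice were of mixed 129 and C57/BL6 background, both sexes were used, and hearts of each genotype came from the same litter. The whole cardiogenic region was taken, so tissue next to the heart was also captured.

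After filtering, 33419 cells remained, 5684 to 10097 per library, with a median of 14898 to 25740 unique molecular identifiers (UMIs, each 1 captured RNA molecule) per cell. Kept barcodes shared by a pair of libraries numbered 12 to 29. Libraries 5 and 6 held 535 and 561 foregut mesenchyme-like cells and libraries 7 and 8 held 3 and 4, so the libraries formed pairs that each had 1 control and 1 *Tie2-cko* library. Cell classes were named from marker genes, and each name below stands for cells like that type. Those without a name are called by their 2 leading genes. Of 8 endothelial markers, 8 were present in the chamber EdC cluster, 7 in the cushion EdC cluster and 8 in the vascular endothelial cluster. Red blood cell markers summed to 80.9 and 36.7 UMIs per 10000 in control EdCs and to 13.7 and 12.8 in *Tie2-cko* EdCs, with none of the 6 markers at 0, and their part in the values below was not tested.

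*Tek* itself followed the labels in EdCs. Its level, the mean over cells of UMIs per 10000, was 0.874 and 1.3 in control EdCs and 0.214 and 0.19 in *Tie2-cko* EdCs. The groups did not overlap, and *Tek* was the 1 gene called of 12531 tested in EdCs (0.00798% of genes; log2 fold change -2.50, SE 0.20, edgeR adjusted p = 0.0406). In vascular endothelial cells *Tek* was 0.635 and 0.74 in controls and 0.774 and 0.64 in *Tie2-cko* libraries, which overlap (log2 fold change -0.15, 95% interval -0.80 to 0.50).

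Retinoic acid is made from vitamin A in steps, the last of which is oxidation of retinaldehyde by enzymes such as ALDH1A2. The CYP26 enzymes break it down, so a tissue that makes it and a tissue that removes it can lie side by side. Inside a cell it is carried by CRABP proteins and acts through the nuclear receptors RARα, RARβ and RARγ, which bind DNA as partners of RXR receptors. In the embryonic heart the signal is known for patterning the inflow region and for its production in the epicardium.

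Receptor pairs bind direct repeats of a 6-base half-site, and the promoters of *Cyp26a1* and *Rarb* are shown because both hold such a repeat. The half-site searched was AGGTCA or one of its known variants, the first being AGTTCA, another GGGTCA and the last GGTTCA. Any pairing on either strand with 5 bases between the half-sites was counted. RefSeq promoter windows (GRCm38.p6, 250 bases before to 50 after each start) were at hand for 8 of the 9 genes, 15 windows in all, and not for *Crabp2*. The repeat spaced by 5 was in 2 of those windows, and in 32 of all 32851 windows (0.0974%). Capitals mark the half-sites, and on the printed strand those of *Cyp26a1* read as the reverse complement.
*Cyp26a1*: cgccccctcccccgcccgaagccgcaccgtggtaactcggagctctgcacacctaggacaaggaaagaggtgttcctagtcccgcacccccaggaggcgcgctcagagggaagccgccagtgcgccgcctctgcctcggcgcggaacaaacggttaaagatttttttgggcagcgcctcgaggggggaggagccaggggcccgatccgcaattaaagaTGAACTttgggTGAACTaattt
*Rarb*: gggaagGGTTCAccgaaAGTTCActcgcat

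The *Cyp26a1* stretch is chr19:37697558-37697797 on the plus strand and ends at the base before the gene as GENCODE M21 annotates it (19, 37697798 to 37701536). Its repeat starts 32 bases before the RefSeq start. The *Rarb* stretch is chr14:16575506-16575535, on the minus strand, inside the annotated gene (14, 16430839 to 16819156). That repeat starts 53 bases before the RefSeq start and lies within 2 exon entries of the GENCODE annotation. Repeats of the same half-sites spaced by 1 or by 2 bases were in 73 and 88 of all windows (0.222% and 0.268%) and in none of the 15. The forkhead motif TGTTTAC, searched on both strands since FOXO1 lies in the TIE2 pathway, was in 1199 windows (3.65%) and in none of the 15. These are matches of letters in a short window, and binding was not measured.

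**Figure D1:**
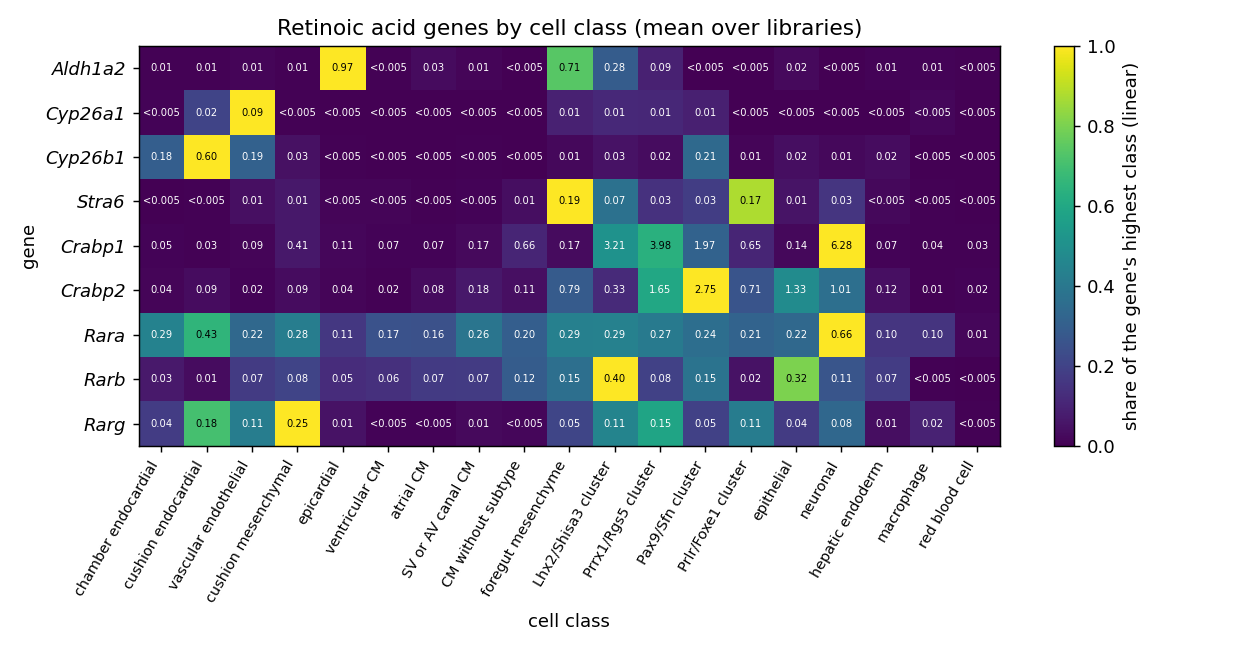
Heat map of the 9 genes (rows) in 19 cell classes (columns); the printed number is the level in UMIs per 10000, mean over the libraries with at least 20 cells of the class, and the colour is that level as a share of the gene's highest class. *Aldh1a2* peaked in epicardial cells (0.97), *Cyp26b1* in cushion EdCs (0.60), *Cyp26a1* in vascular endothelial cells (0.09) and *Rarg* in cushion mesenchymal cells (0.25). Most *Cyp26a1* UMIs of vascular endothelial cells were from *Tie2-cko* libraries.

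The order of the classes is a description, since the same cells were clustered. *Aldh1a2*, the enzyme that makes retinoic acid in the embryo, was highest in epicardial cells. Its level there was 0.919 and 0.857 in controls and 1.07 and 1.02 in *Tie2-cko* libraries, and epicardial cells, 1631 of the cells kept, held 52.3% of the 6978 *Aldh1a2* UMIs. Foregut mesenchyme came next with 0.661 and 0.768 in libraries 5 and 6, below every epicardial library. The cluster led by *Lhx2* and *Shisa3* followed at 0.155 to 0.402, and its range overlapped that of the cluster led by *Prrx1* and *Rgs5* (0.0214 to 0.239). Among the classes of cardiomyocytes (CMs), atrial cells had the highest mean, with libraries at 0.0141 to 0.0439. EdCs held 31 UMIs in 2720 cells, at 0.000477 to 0.0099 per library, a range that spans the 0.0023 to 0.00571 of red blood cells, which should lack the gene.

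*Stra6*, the membrane receptor that takes up retinol from its carrier, was seen mostly outside the heart proper. Foregut mesenchyme held 440 of its 1067 UMIs (41.2%), at 0.143 and 0.239 in libraries 5 and 6, and the range of the cluster led by *Prlr* and *Foxe1* (0.156 to 0.176 in the 3 libraries with at least 20 cells) lay within that of foregut mesenchyme. EdCs held 6 *Stra6* UMIs in all.

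By the mean over libraries of both genotypes, the 2 breakdown enzymes had their highest levels in different endothelial classes. *Cyp26b1* was highest in cushion EdCs, the cells that line the endocardial cushions and express *Nfatc1*, at 0.584 and 0.591 in controls and 0.61 and 0.617 in *Tie2-cko* libraries. No library of any other class reached that range. The next 3 classes overlapped each other: the cluster led by *Pax9* and *Sfn* at 0.135 to 0.259, vascular endothelial cells at 0.147 to 0.285, and chamber EdCs at 0.125 to 0.264. Of 2465 *Cyp26b1* UMIs, 63.6% were in EdCs and 6.29% in vascular endothelial cells. Cushion mesenchymal cells, which arise from cushion EdCs, were far lower, at 0.0219 to 0.0315.

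*Cyp26a1* was rare, with 243 UMIs in 157 of all cells. Vascular endothelial cells, 332 in number, held 59 of them (24.3%), EdCs held 39 (16%), the clusters led by *Lhx2* and *Prrx1* held 48 and 42, and CMs held 11. By level, vascular endothelial cells (0.0197 to 0.22) overlapped cushion EdCs (0.0107 to 0.0279), and cushion EdCs overlapped the clusters led by *Lhx2* and *Prrx1*. Of the vascular UMIs, 2 and 3 were from control libraries 5 and 7 and 21 and 33 from *Tie2-cko* libraries 6 and 8. The rank of this class thus holds the genotype difference given below. In control library 5 the cluster led by *Prrx1* (0.0405) was above vascular endothelial cells (0.0197), and in control library 7 that cluster had 0 UMIs. No *Cyp26a1* UMI was seen in 1631 epicardial cells, the class richest in *Aldh1a2*, nor in atrial CMs. It was also at 0 in hepatic, epithelial and neuronal cells and in the cluster led by *Prlr*. Foregut mesenchyme and the cluster led by *Lhx2*, the next classes by *Aldh1a2*, held 15 and 48 *Cyp26a1* UMIs.

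Among the receptors, *Rara* was broad, *Rarb* was highest outside the endothelium and *Rarg* had its highest means in 2 cushion classes. *Rara* was led by neuronal cells at 0.584 and 0.73 (libraries 5 and 6), followed by cushion EdCs at 0.391 to 0.501 and chamber EdCs at 0.255 to 0.333, ranges that do not overlap. *Rarb* was 0.336 to 0.475 in the cluster led by *Lhx2*, where it overlapped epithelial cells (0.294 and 0.345), and 0.00256 to 0.0194 in cushion EdCs. The 2 genes whose promoters share the repeat spaced by 5, *Cyp26a1* and *Rarb*, had their highest means in different classes. A link between the repeat and the levels was not tested. In CMs *Rarb* was highest in those without a subtype by markers, at 0.112 to 0.125. *Rarg* was 0.212 to 0.297 in cushion mesenchymal cells, 0.0972 to 0.239 in cushion EdCs, and 0.0313 to 0.0703 in chamber EdCs. The first 2 overlapped, and chamber EdCs lay below both. The cluster led by *Prrx1*, at 0.0906 to 0.236, overlapped both cushion classes.

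The carriers of retinoic acid were highest in classes other than CMs and endothelium. *Crabp1* was 6.11 and 6.45 in neuronal cells of libraries 5 and 6 and 2.88 to 4.68 in the cluster led by *Prrx1*, whose leading genes include *Dlx5*, known from neural crest of the pharyngeal arches. Among CM classes it was highest in those without a subtype, 0.576 to 0.75. *Crabp2*, which hands retinoic acid to its receptors, was highest in the cluster led by *Pax9* and *Sfn*, genes of pharyngeal epithelium. It was 2.04 and 1.74 there in libraries 5 and 6 and 3.69 and 3.54 in libraries 7 and 8, so the libraries grouped by pair and not by genotype. The chamber and cushion EdCs had 0.013 to 0.112 *Crabp2* UMIs per 10000.

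By likeness of their levels over 23 clusters (Pearson's r of log2(level + 0.01), 13361 genes), the 5 genes most like *Cyp26a1* were *Fam124b* (r = 0.887), *Sncg* (0.855), *Col15a1* (0.829), *Oit3* (0.827) and *Madcam1* (0.823). All 5 were highest in the vascular endothelial cluster, where *Cyp26a1* itself peaked, and picking genes by likeness favours such genes. That *Cyp26a1* peak rested mostly on UMIs of *Tie2-cko* libraries. The 5 most like *Aldh1a2* were *Smim41* (0.944), *Ak5* (0.935), *Rspo1* (0.910), *Ccbe1* (0.894) and *Bnc1* (0.854), of which *Smim41* and *Bnc1* were highest in epicardial cells. The points are clusters of the same 4 libraries, and r is a description.

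*Cyp26a1* was the gene for which the list was chosen, and in EdCs its genotype values rested on 39 UMIs. Control EdCs held 6 UMIs in 615 cells (library 5) and 7 in 1003 cells (library 7). *Tie2-cko* EdCs held 8 in 253 cells (library 6) and 18 in 849 cells (library 8). As levels this was 0.00672 and 0.00515 UMIs per 10000 in controls (mean 0.00593 ± 0.00111, SD, n = 2) and 0.00888 and 0.0136 in *Tie2-cko* libraries (0.0112 ± 0.00332, n = 2). Both *Tie2-cko* libraries lay above both controls, with a log2 fold change of 1.18 (SE 0.52). By summed counts *Cyp26a1* and *Crabp1* were higher and *Rarb* lower in both *Tie2-cko* libraries, 3 of the 7 genes that passed the filter on low counts. *Cyp26a1*, chosen for its rise, is 1 of these 3, so the count is a description. Of all genes tested in EdCs, 18.7% had both *Tie2-cko* libraries above both controls and 35.6% had groups that did not overlap.

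Most of these UMIs were in cushion EdCs and not in chamber EdCs. Cushion EdCs had 6 and 6 UMIs in controls and 6 and 15 in *Tie2-cko* libraries, levels of 0.0176, 0.0107, 0.018 and 0.0279. The *Tie2-cko* library 6 and the control library 5 had nearly the same cushion level, and library 8 was the highest. Chamber EdCs, 1571 cells, had 0 and 1 UMIs in controls and 2 and 3 in *Tie2-cko* libraries. The 0 in 380 chamber EdCs of library 5 allows a share of cells with a UMI of up to 0.789%.

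With each EdC thinned to 5000 UMIs, which leaves out 10 to 45 shallower cells per library, 1 of 594 and 1 of 958 control EdCs and 0 of 243 and 8 of 811 *Tie2-cko* EdCs had a *Cyp26a1* UMI. These are 0.168% (95% exact binomial interval 0.00426% to 0.934%), 0.104% (0.00264% to 0.58%), 0% (0% to 1.51%) and 0.986% (0.427% to 1.93%). At equal depth library 8 had the highest share and library 6 had none, and the interval of library 8 overlaps those of the other 3 libraries. Without thinning the shares were 0.813% and 0.698% in controls and 3.16% and 1.88% in *Tie2-cko* libraries, and library 6 had the deepest EdCs, with a median of 26543 UMIs against 11608 to 14836. In red blood cells, which should lack the gene, 0% to 0.0882% of thinned cells had a UMI, at median depths of 22799 to 60176. Intervals cover counting error only.

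Vascular endothelial cells showed the larger difference in UMIs. Control libraries 5 and 7 had 2 and 3 UMIs in 97 and 64 cells, and *Tie2-cko* libraries 6 and 8 had 21 and 33 in 72 and 99 cells. The 21 UMIs of library 6 came from 4 cells, of which 1 held 10 and another 7. The 33 of library 8 came from 14 cells, of which the highest held 6. As the mean over cells, which weights each cell alike, the levels were 0.0197 and 0.0658 in controls and 0.0577 and 0.22 in *Tie2-cko* libraries, so library 6 fell between the controls. From summed counts they were 0.00885 and 0.0405 against 0.0683 and 0.199, which do not overlap (log2 fold change 2.75, SE 0.88). Without library 8 the log2 fold change was 1.85, without library 5 it was 1.60, and without library 7 it was 3.72. After thinning, 1 of 92 and 2 of 55 control cells and 2 of 65 and 10 of 95 *Tie2-cko* cells had a UMI, with 95% exact binomial intervals of 0.0275% to 5.91%, 0.443% to 12.5%, 0.375% to 10.7% and 5.16% to 18.5%. These intervals overlap. *Tek* was not lowered in these cells, as given above.

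Where vascular endothelial cells were counted with the EdCs, the log2 fold change of *Cyp26a1* was 2.22 (SE 0.41) in place of 1.18. Markers of vascular endothelial cells within the EdC clusters summed to 0.802 and 0.530 UMIs per 10000 in controls and to 0.867 and 0.705 in *Tie2-cko* libraries, with 0 or 1 of the 7 markers at 0. Their part in the EdC value was not tested.

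The other members in vascular endothelial cells gave wide spreads. *Cyp26b1* was 0.155 and 0.162 in controls and 0.285 and 0.147 in *Tie2-cko* libraries (log2 fold change 0.08, SE 0.42). *Rarb* was 0.0499 and 0.14 in controls and 0.0635 and 0.0218 in *Tie2-cko* libraries (-0.97, SE 0.55), from 48 UMIs. In both genes the groups overlapped by the mean over cells. By summed counts *Cyp26a1* was higher and *Rarb* lower without overlap, 2 of the 6 members that passed the filter, against 24% of all genes tested there. With 2 and 3 UMIs in control libraries 5 and 7, *Cyp26a1* passed that filter through the *Tie2-cko* libraries. It is also the gene for which the list was chosen, so this count is a description.

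**Figure D2:**
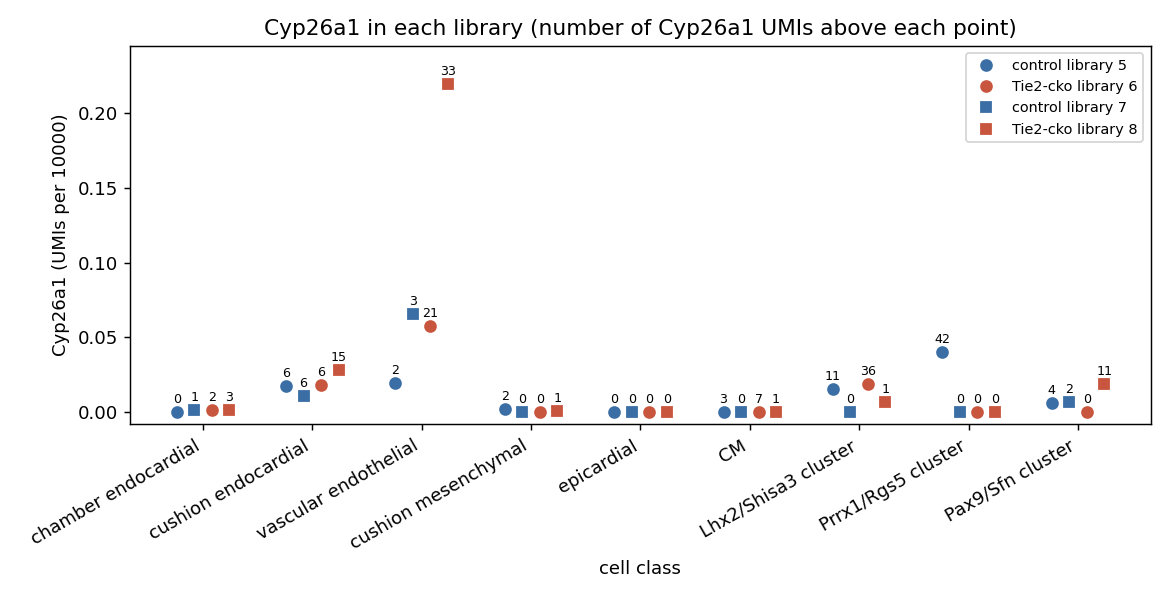
Level of *Cyp26a1* (y axis, mean UMIs per 10000) in 9 cell classes (x axis), 1 point per library, with blue for control, red for *Tie2-cko*, circles for libraries 5 and 6, squares for libraries 7 and 8, and the number of *Cyp26a1* UMIs above each point. Library 8 vascular endothelial cells stand apart at 0.22, EdC values lie at or below 0.0279, and the 42 UMIs of the *Prrx1* cluster are all from library 5.

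Outside the endothelium *Cyp26a1* UMIs were mostly from libraries 5 and 6, and it did not pass the filter on low counts in any of the 6 classes tested. The cluster led by *Prrx1* had 42 UMIs in 25 of 548 cells of control library 5 and 0 in the 84, 471 and 716 cells of libraries 6, 7 and 8. *Nr2f1*, a gene known to respond to retinoic acid, had a level of 3.81 in those 25 cells and of 1.58 in the other cells of that library and cluster. The cluster led by *Lhx2* had 11 and 36 UMIs in libraries 5 and 6 and 0 and 1 in libraries 7 and 8. There *Nr2f1* went the other way, at 0.138 in cells with a *Cyp26a1* UMI against 0.849 in the others of library 5, and at 0.194 against 0.706 in library 6. In vascular endothelial cells of libraries 6, 7 and 8 *Nr2f1* was 0 in the 4, 3 and 14 cells with a *Cyp26a1* UMI. The others there had 0.254, 0.0584 and 0.0629. In library 5 it went the other way, at 0.599 in 2 vascular endothelial cells with a *Cyp26a1* UMI against 0.116 in the others. CMs had 3 and 0 UMIs in controls and 7 and 1 in *Tie2-cko* libraries, of 12370 cells.

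*Cyp26b1*, with 1568 UMIs in EdCs, was measured far more precisely. Its EdC level was 0.32 and 0.34 in controls (0.33 ± 0.0141, n = 2) and 0.342 and 0.428 in *Tie2-cko* libraries (0.385 ± 0.0611, n = 2), groups that did not overlap but whose nearest libraries differed little. By summed counts the groups overlapped. The log2 fold change was 0.071 (SE 0.21). In cushion EdCs the means were 0.588 ± 0.00517 and 0.614 ± 0.00472, again without overlap and with a small difference. In chamber EdCs library 8 was highest (0.264) and library 6 lowest (0.125), with the controls between them.

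The receptors in EdCs overlapped between genotypes by the mean over cells. *Rara* was 0.317 and 0.356 in controls and 0.392 and 0.34 in *Tie2-cko* libraries (log2 fold change -0.07, SE 0.14). *Rarg* was 0.117 and 0.0579 in controls and 0.129 and 0.101 in *Tie2-cko* libraries (0.25, SE 0.30), and control library 7 was the lowest. *Rarb* was 0.0255 and 0.0193 against 0.0167 and 0.0236 (-0.39, SE 0.32).

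Of the carriers, *Crabp1* had 78 UMIs in control EdCs and 177 in *Tie2-cko* EdCs, and a log2 fold change of 1.34 (SE 0.43). Its level by cell was 0.0497 and 0.0166 in controls and 0.029 and 0.0724 in *Tie2-cko* libraries, which overlap, and chamber EdCs of library 8 were the highest at 0.111. *Crabp2* was 0.058 and 0.0642 against 0.029 and 0.0916 (-0.06, SE 0.39). *Aldh1a2*, at 6 UMIs in control and 25 in *Tie2-cko* EdCs, and *Stra6*, at 3 and 3, did not pass the filter on low counts. The *Aldh1a2* UMIs of *Tie2-cko* EdCs lay mostly in library 6 (19 UMIs), and foregut mesenchyme markers in EdCs summed to 0.216 and 0.139 in controls and to 0.235 and 0.166 in *Tie2-cko* libraries. Their part was not tested.

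**Figure D3:**
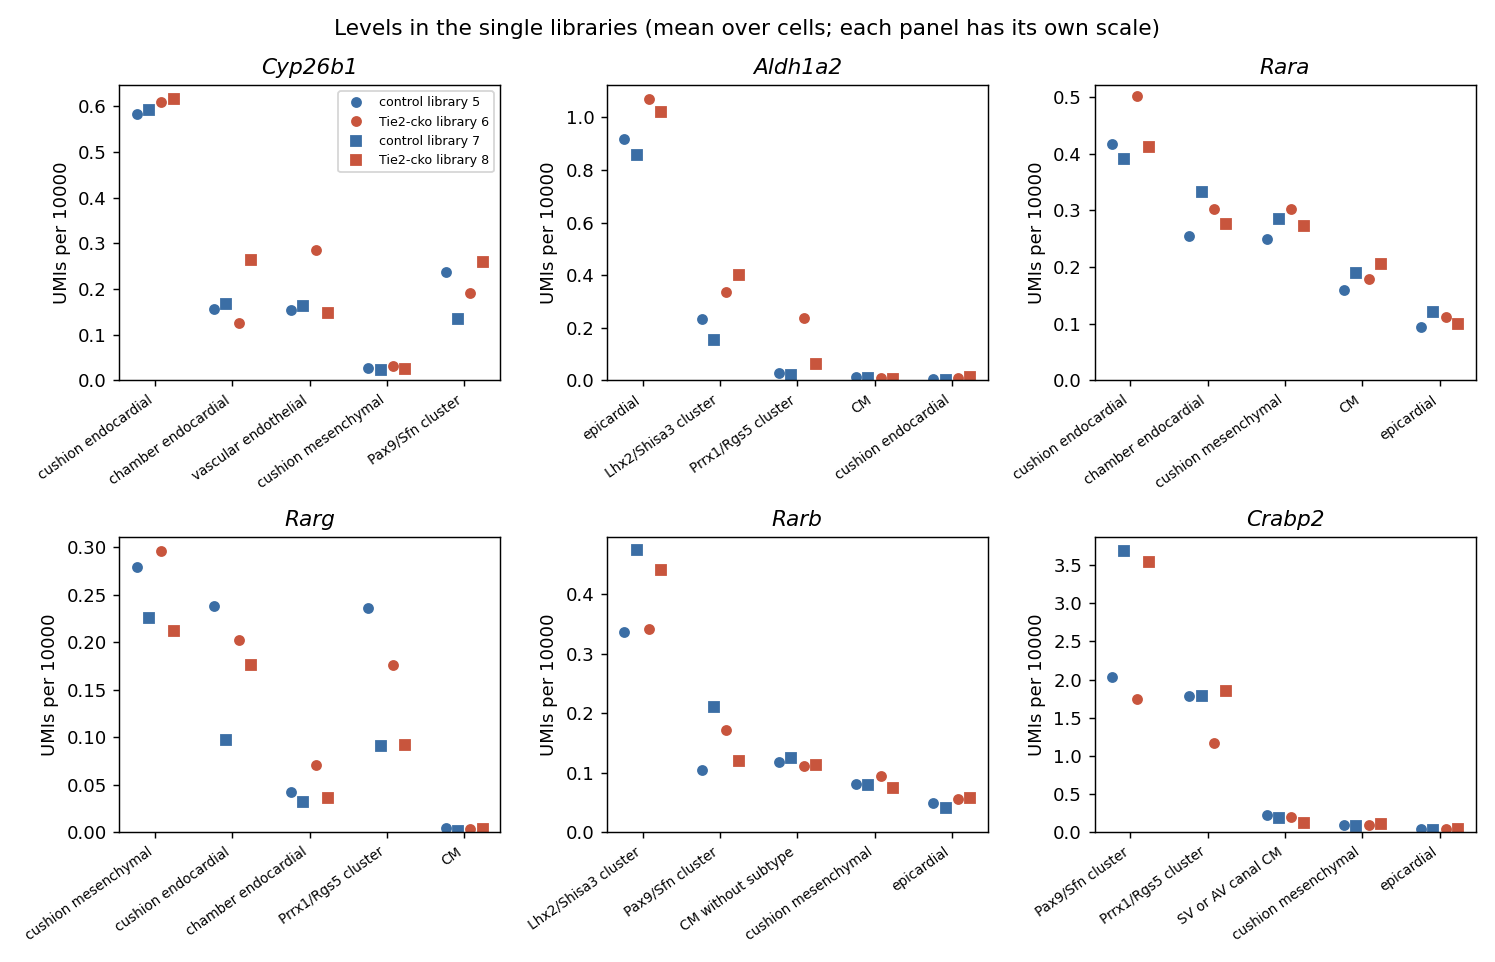
Levels (y axes, UMIs per 10000, mean over cells) of 6 of the genes in 5 cell classes each, 1 point per library, blue for control, red for *Tie2-cko*, circles for libraries 5 and 6 and squares for libraries 7 and 8. *Cyp26b1* in cushion EdCs spans 0.584 to 0.617, while *Crabp2* in the *Pax9* cluster, *Rarb* in the *Lhx2* cluster and *Rarg* in cushion mesenchymal cells separate by library pair.

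Whether the pathway differed by genotype outside the endothelium was tested with edgeR's quasi-likelihood test on counts summed per library. None of the 9 genes passed an adjusted p of 0.05 in any class tested. In CMs 8 genes were tested and 0 called, as were 0 of all 15582 genes (0% of genes; 62 at an unadjusted p under 0.05, and 2 called by DESeq2). In cushion mesenchymal cells 7 were tested and 0 called, with 0 of 12724 genes called (0%; 126 unadjusted, 9 by DESeq2). In epicardial cells 6 were tested and 0 called, with 5 of 11901 genes called (0.042%), all globins that fell. In simulated counts of these 3 classes with 200 genes changed 2-fold (log2 of 1), 54.5%, 59.5% and 57% were called. Beside these 109, 119 and 114 genes, 13, 26 and 21 unchanged genes were called. The changed genes were drawn from all genes that passed the filter and no library pair was simulated, so the rates are not those of the 9 genes.

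In epicardial cells the log2 fold change of *Aldh1a2* was 0.090 (SE 0.13, 95% interval -0.22 to 0.40, edgeR adjusted p = 1.0). By the mean over cells both *Tie2-cko* libraries were above both controls, as the values above show, and by summed counts per library they overlapped. Thinned shares of epicardial cells with an *Aldh1a2* UMI were 33 to 33.2% in controls and 32.3 to 34.8% in *Tie2-cko* libraries. *Aldh1a1*, a second enzyme that makes retinoic acid, was also epicardial, at 1.06 and 0.970 in controls and 1.07 and 0.941 in *Tie2-cko* libraries, and its log2 fold change was -0.01 (SE 0.13). The 6 members tested had a median of 0.12, beside 0.0046 for all genes. *Rarb* was 0.33 (SE 0.24) and *Crabp1* -0.32 (SE 0.22), and by summed counts these 2 of the 6 genes did not overlap between genotypes, against 24% of all genes tested in epicardial cells.

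In CMs the log2 fold changes ran from -0.61 for *Cyp26b1* (SE 0.47), which had 88 UMIs there, to 0.17 for *Rara* (SE 0.13), with a median of 0.021 beside 0.0074 for all genes. *Crabp2* was 0.0777 and 0.0718 in controls and 0.0562 and 0.0589 in *Tie2-cko* CMs (log2 fold change -0.21, SE 0.14, edgeR adjusted p = 1.0). It was the 1 of 8 genes without overlap by summed counts, against 16.6% of all genes tested. *Rara* and *Rarb*, with 7293 and 2779 UMIs in CMs, had 95% intervals of -0.17 to 0.50 and -0.32 to 0.34.

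In cushion mesenchymal cells the 7 log2 fold changes ran from -0.13 for *Crabp1* to 0.25 for *Cyp26b1*, with a median of -0.0012 beside 0.0042 for all genes, and 0 of the 7 genes was without overlap, against 23.5% of all genes tested. *Rarg*, the receptor with its highest level in these cells, was 0.28 and 0.225 in controls and 0.297 and 0.212 in *Tie2-cko* libraries (log2 fold change -0.03, SE 0.17, 95% interval -0.43 to 0.38). Libraries 5 and 6 were the higher pair. *Tek* in these cells was 0.16 and 0.289 in controls and 0.0427 and 0.0343 in *Tie2-cko* libraries (-2.25, SE 0.33, edgeR adjusted p = 0.54).

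In 3 clusters of tissue next to the heart, tested after they had been seen, 0 members were called. In the cluster led by *Prrx1* and *Rgs5*, 7 members were tested beside 11850 genes, 0 of which were called (0%; 439 unadjusted, 7 by DESeq2). *Aldh1a2* was 0.0268 and 0.0214 in controls and 0.239 and 0.0622 in *Tie2-cko* libraries, without overlap. Its log2 fold change was 1.54 (SE 0.41, edgeR adjusted p = 0.99), and 21, 10, 13 and 58 UMIs stood behind libraries 5, 7, 6 and 8. *Rarg* had a log2 fold change of -0.89 (SE 0.40, edgeR adjusted p = 0.99) and was 0.236 and 0.0906 in controls and 0.176 and 0.0914 in *Tie2-cko* libraries, which overlap. Without library 5 it was -0.084 and without library 7 -1.37. By summed counts 4 of the 7 genes did not overlap, against 35.2% of all genes.

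In the cluster led by *Pax9* and *Sfn*, 7 members were tested and 0 called, with 6 of 11114 genes called (0.054%), all globins. *Cyp26b1* there had a log2 fold change of 0.51 (SE 0.29) and *Rara* of 0.42 (SE 0.23), and these 2 of the 7 did not overlap by summed counts, against 26.6% of all genes. In the cluster led by *Lhx2* and *Shisa3*, 8 members were tested and 0 called, with 0 of 11245 genes called (0%; 116 unadjusted, 0 by DESeq2). *Crabp1* was 3.6 and 4.7 in controls and 3.61 and 0.922 in *Tie2-cko* libraries, so library 8 alone was low, and its log2 fold change of -1.14 (SE 0.49, edgeR adjusted p = 1.0) was -0.47 without it. *Crabp1* was called without library 6 (-2.57), without the filter on low counts (-1.12) and with a block for the library pair (-1.31). *Aldh1a2* was 0.232 and 0.155 in controls and 0.336 and 0.402 in *Tie2-cko* libraries, without overlap (0.46, SE 0.28, edgeR adjusted p = 1.0), and it was 1.12 without library 5 and 0.30 without library 7. By summed counts 3 of the 8 members did not overlap, against 29.7% of all genes. Control library 7 had 25 cells of this cluster and 6 *Aldh1a2* UMIs.

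**Figure D4:**
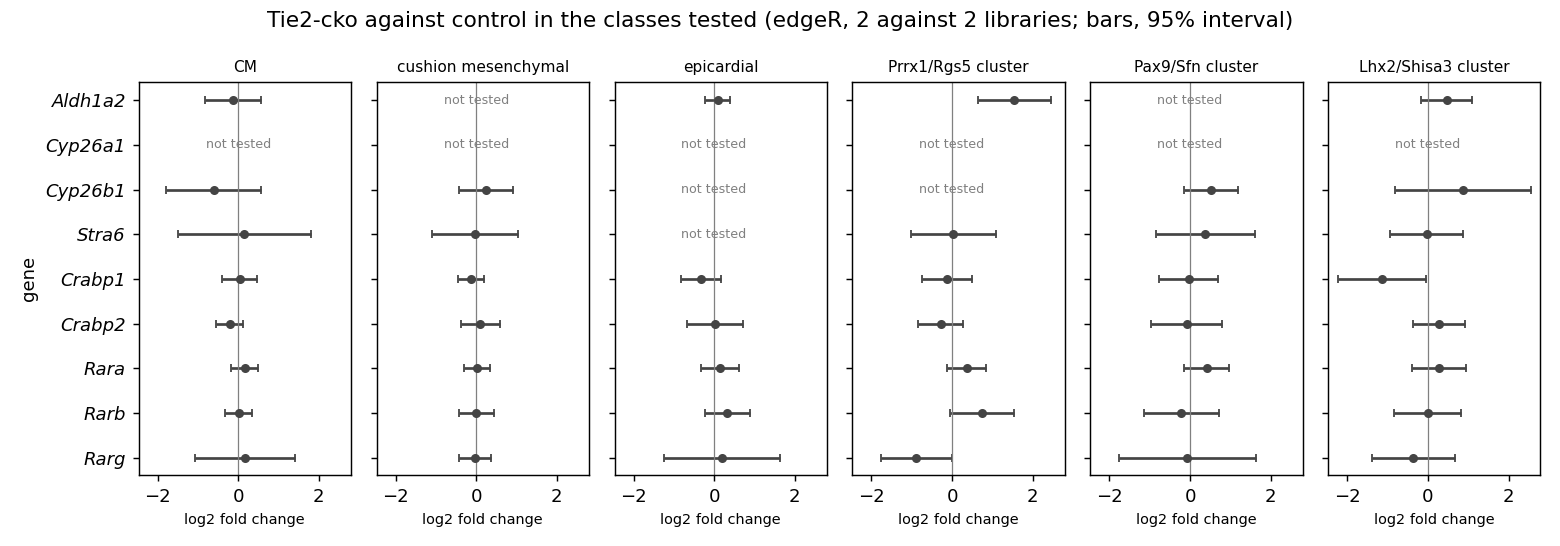
Log2 fold change, *Tie2-cko* against control (x axes), of the 9 genes (y axis) in the 6 cell classes tested, with points for the edgeR estimate from 2 against 2 libraries and bars for its 95% interval. No gene passed an adjusted p of 0.05; intervals are narrowest for *Aldh1a2* in epicardial cells (-0.22 to 0.40) and wide for genes of few UMIs such as *Stra6* in CMs (-1.50 to 1.80).

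The other 24 genes listed for the pathway, among them carriers, partner receptors and genes known to respond to retinoic acid, gave 0 calls in the 6 classes tested outside the endothelium. Of the 16 that passed the filter in EdCs, which are given as a description, 7 were higher and 9 lower in *Tie2-cko* libraries, with a median log2 fold change of -0.04. The 3 with the highest absolute value were *Aldh1a3* (-0.52, SE 0.36), the fatty acid binding protein gene *Fabp5* (-0.42, SE 0.16) and *Dhrs3*, which returns retinaldehyde to retinol (-0.41, SE 0.34). Of 20 tested in CMs, 10 were higher and 10 lower, led by *Dhrs3* (-0.35, SE 0.24), *Aldh1a1* (-0.34, SE 0.37) and *Rdh10*, which makes retinaldehyde (0.29, SE 0.24). Of 18 tested in cushion mesenchymal cells, 13 were higher and 5 lower, led by *Rxrg* (-0.69, SE 0.42). Of 18 tested in epicardial cells, 7 were higher and 11 lower, led by *Rdh10* (-0.47, SE 0.45).

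Of the 14 that passed the filter in vascular endothelial cells, 8 were higher and 6 lower, among them *Tgm2* (0.86, SE 0.74) and *Nr2f1* (-0.51, SE 0.48), both known to respond to retinoic acid. In the *Lhx2* cluster *Rbp4*, the blood carrier of retinol made by liver, had a log2 fold change of 2.99 (SE 1.06, edgeR adjusted p = 1.0). Its mean level was 0.0899 there and 29.5 in hepatic endoderm, which had 244, 313, 0 and 46 cells in libraries 5 to 8. A part of hepatic RNA in this value was not tested. *Nr2f2* was 0.78 (SE 0.27) in the *Lhx2* cluster. In the *Prrx1* cluster *Nr2f1* was -1.16 (SE 0.44) and *Dhrs3* 1.14 (SE 0.63), and in the *Pax9* cluster *Gbx2* was 1.52 (SE 0.42). None of those in the 3 clusters passed the adjusted p. With a block for the library pair 2 pathway genes were called in the *Lhx2* cluster and 1 in the *Pax9* cluster, and without the filter on low counts 1 each in the *Lhx2* and *Prrx1* clusters. With a library left out, 2 were called in the *Lhx2* cluster without library 6, 1 there without library 8, and 1 in the *Prrx1* cluster without library 7.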

How the data were processed

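Hearts of 4 libraries (2 control, 2 *Tie2-cko*) were profiled by 10x single-cell RNA-seq. The deposited values are raw UMI counts per gene and barcode, made by the authors with Cell Ranger (6.1.2 by the file headers, 2.1.1 by the methods) on mm10. Cell Ranger had called cells before deposit. Barcodes with at least 500 genes, 1000 UMIs and at most 10% mitochondrial UMIs were kept, and presumed doublets (0.8% per 1000 barcodes, by simulated neighbours) were removed. Clusters came from Seurat 5.3.0 (2000 variable genes, less 17 of the pathway and *Tek*, 30 components, resolution 0.8, 26 clusters) and were named from marker lists. Clusters whose median UMI count was under 0.333 times that of their libraries were set aside as few UMIs, and these conditions were set after the clusters were seen. Counts were summed per library and class and tested with edgeR 4.0.16 (TMM, quasi-likelihood, low-count filter, Benjamini-Hochberg over all genes of the class). For a level, the UMIs of a gene per 10000 were taken in each cell and averaged over the class.

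Fold changes are *Tie2-cko* over control, and SE is the log2 fold change over the root of F. An exact permutation test over libraries was run on 54 thinned shares outside the endothelium. With 2 against 2 libraries its smallest two-sided p is 0.333, so it cannot pass 0.05. Depth was 169361996 to 259775540 UMIs per library. P-values measure the spread between 2 libraries per genotype. The genes named were the 9 members, *Tek*, of the 24 pathway genes the 3 of highest absolute log2 fold change per class (in part; 1 gene is not reported here), and 5 genes most like *Cyp26a1* and *Aldh1a2*. *Nr2f1* in cells with *Cyp26a1*, and 3 cluster tests, were added after values were seen. Members and lists were chosen with earlier results of these data known. Alternatives were other size factors (RLE), DESeq2 1.42.0, no low-count filter, each library left out, a block for the library pair, stricter cell filters, resolutions 0.4 and 1.2, summed levels and stricter doublet removal.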

Additional observations from a re-analysis of the deposited data

Results flagged for a closer look

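Of 3 genes both *Tie2-cko* libraries moved one way in 1 cell class and the opposite way in another by the mean level over cells. The difference between the classes was not tested, and the log2 fold changes come from summed counts. Of the changes below, only *Crabp2* in CMs and *Aldh1a2* in the clusters led by *Prrx1* and *Lhx2* were without overlap by summed counts. Of all genes tested in those classes, 16.6%, 35.2% and 29.7% were without overlap. How many of all genes moved in opposite ways between classes was not counted. *Cyp26b1* was higher in EdCs (log2 fold change 0.071) and lower in CMs (-0.61). *Aldh1a2* was higher in epicardial cells (0.090), in the cluster led by *Prrx1* and *Rgs5* (1.54) and in the cluster led by *Lhx2* and *Shisa3* (0.46), and lower in CMs (-0.12). *Crabp2* was higher in epicardial cells (0.022) and lower in CMs (-0.21). None of these was called in the classes tested, and *Cyp26b1* in EdCs belongs to the contrast from which the genes were chosen.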

How the results depend on the processing

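The labels pair no control with a *Tie2-cko* library, so no pairing by replicate number was fitted. A block for libraries 5 and 6 against 7 and 8, known from earlier results to differ in non-cardiac tissue, raised genes called to 113 in CMs, 88 in cushion mesenchymal, 63 in epicardial, 28 in vascular endothelial and 885 in endocardial cells, and to 29, 87 and 59 in the clusters led by *Prrx1*, *Pax9* and *Lhx2*. Without the low-count filter they were 25 in cushion mesenchymal, 15 in epicardial, 23 in vascular endothelial and 115 in endocardial cells, and 77, 30 and 49 in those clusters. DESeq2 called 2 in CMs, 9 in cushion mesenchymal, 6 in vascular endothelial, 12 in endocardial cells and 7 in the *Prrx1* cluster. Resolution 1.2 called 3 in vascular endothelial cells. RLE, resolution 0.4, and, added after seeing the data, vascular endothelial cells or the endothelial cluster of few UMIs counted with EdCs called 0 in endocardial cells, where *Tek* (log2 fold change -2.51, -1.89, -1.88 and -2.47) lost its call. With a library left out, genes called ranged over 0 to 11 in CMs, 0 to 14 in cushion mesenchymal, 7 to 70 in epicardial, 0 to 54 in vascular endothelial and 4 to 19 in endocardial cells, and 0 to 61, 7 to 54 and 0 to 172 in those clusters.

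Members called stayed at 0 in CMs, cushion mesenchymal and epicardial cells and the *Pax9* cluster under every alternative fitted to counts (RLE, DESeq2, no filter, the block, each library left out, stricter cell filters and other resolutions). In the *Lhx2* cluster 1 member, *Crabp1*, was called with the block (log2 fold change -1.31), without the filter (-1.12) and without *Tie2-cko* replicate 6 (-2.57), so 0 to 1 with a library left out. In the *Prrx1* cluster 1 member, *Cyp26a1*, which the filter otherwise removes, was called without the filter, as lower in *Tie2-cko* libraries. All 42 of its UMIs there came from control library 5, with 0 in libraries 6, 7 and 8. *Cyp26a1* in EdCs had log2 fold changes of 2.21 at resolution 0.4 and 2.22 with vascular endothelial cells, and of 1.11 to 1.51 with a library left out. In vascular endothelial cells it ran from 1.60 without control replicate 5 to 3.72 without control replicate 7. *Aldh1a2* in epicardial cells turned to -0.019 without *Tie2-cko* replicate 8, in a range of -0.019 to 0.18 with a library left out. *Rarg* in cushion mesenchymal cells turned to 0.09 without control replicate 5 and 0.15 without *Tie2-cko* replicate 8, in a range of -0.22 to 0.15. The cause was not tested. Foregut mesenchyme could not be fitted, with 3 and 4 cells in libraries 7 and 8. Simulated 2-fold changes were called in 10% of genes (20 genes, beside 6 unchanged genes called) in vascular endothelial cells, the class of fewest cells tested.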
